A study of Rattus norvegicus with 30 samples.

Results

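Cannabidiol (CBD), a compound of the cannabis plant, and dimethyl fumarate (DMF), an oral treatment for multiple sclerosis, were compared through the difference of their effects on gene expression in rat hippocampal neurons after 24 h. For each gene, the CBD effect (CBD over its vehicle ethanol, EtOH) was set against the DMF effect (DMF over its vehicle dimethyl sulfoxide, DMSO). The comparison rests on 12 of the 30 libraries of the series, chosen by their labels and not by any measured value: 3 each of CBD_24h, EtOH_24h, DMF_24h and DMSO_24h. The cells of all 4 groups were primary cultures from hippocampi of Wistar rats at embryonic day 18, grown for 7 days, and poly(A) RNA was sequenced. CBD was given at 6 µM and DMF at 30 µM, each with 0.2% of its own vehicle. The doses and the vehicles therefore differ between the drugs, so that a difference between the effects belongs to these doses and cannot be told apart from one of potency. The titles of the libraries carry the numbers 1 to 3, called experiments 1, 2 and 3 here, and the number was kept as a block in the fit. The experiment was repeated 3 times, but whether same-numbered libraries come from the same repeat or culture is not stated.

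DMF is an electrophile that modifies cysteines, among them those of Keap1, which holds the transcription factor Nrf2 in the cytoplasm. Freed Nrf2 enters the nucleus and binds antioxidant response elements before genes for glutathione, thioredoxin and quinone metabolism. Other stress programmes have sensors and DNA elements of their own. Zinc in excess is read by the factor Mtf1 at metal response elements, unfolded protein in the endoplasmic reticulum (ER) by Atf6 and the Ire1 and Xbp1 branch at ER stress elements, and scarce amino acids or stalled initiation by the factor ATF4. Sterols and fatty acids are made under Srebf2 and Srebf1, and the firing of neurons sets off immediate early genes such as Arc and Npas4.

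The 12 libraries held between 15108132 and 24654091 reads on genes, with a median of 17737237. Values below are reads divided by a size factor per library (normalized reads), and effects are differences of log2(normalized reads + 1). Neither drug has a target gene whose loss would check the labels. The summed level of 16 neuronal markers lay between 127000 and 166700 normalized reads in all 12 libraries, and that of 14 astrocyte markers between 52930 and 126400. The oligodendrocyte lineage gave between 11190 and 24160, vessel and connective tissue between 999 and 2094, and microglia between 74.7 and 207 normalized reads, so that the cultures held glia beside neurons and very little microglial RNA. The libraries of the CBD group differed in how far they lay from their vehicle. Over the genes called for CBD, the median change in the called direction was 0.30 in experiment 1, 0.43 in experiment 2 and 0.59 in experiment 3 on the log2 scale. The medians for DMF, over its own called genes, were 0.55, 0.60 and 0.43. Genes of mitochondrial DNA held 5.38%, 4.22% and 2.92% of the reads of CBD libraries 1, 2 and 3, and between 4.62% and 5.73% in the other 9 libraries.

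Stretches before the start sites of genes from 3 of these programmes are shown first, because genes of these programmes are described below and several differed between the drugs. They are from RefSeq (rat build GRCr8) and lie within the 250 bases before the annotated start. The metal response element was searched as TGCACNC or TGCGCNC on both strands, and 20.6% of all 33469 RefSeq promoters hold at least 1 match. Here and for the motifs below, the share is over promoters and the list counts are over genes. For a gene with more than 1 listed start, such as Slc30a2, the start with the most matches was counted and shown, which favours a match. In the first 4 lines the capitals mark its matches, of which Mt1 has 6, Mt2A 4, and Slc30a1 and Slc30a2 have 2 each. Of the 11 measured genes for metallothioneins and zinc exporters with a RefSeq promoter, 8 hold a match, namely all 4 called for CBD and 4 of the 7 called for neither drug. A match is a likeness in letters and was not tested as a binding site.
Mt1, chr19:10833018-10833157, minus strand: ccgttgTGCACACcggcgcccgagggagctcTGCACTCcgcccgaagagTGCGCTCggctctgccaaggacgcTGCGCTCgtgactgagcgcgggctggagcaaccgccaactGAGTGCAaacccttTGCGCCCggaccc
Mt2A, chr19:10838751-10838934, minus strand: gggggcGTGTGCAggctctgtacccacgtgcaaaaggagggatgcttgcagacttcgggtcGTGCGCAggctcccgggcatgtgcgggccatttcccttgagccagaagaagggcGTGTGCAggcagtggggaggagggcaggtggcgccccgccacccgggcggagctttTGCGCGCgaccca
Slc30a1, chr13:106021922-106022013, plus strand: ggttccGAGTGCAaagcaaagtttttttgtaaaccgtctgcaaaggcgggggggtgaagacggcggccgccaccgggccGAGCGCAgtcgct
Slc30a2, chr5:151843356-151843442, plus strand: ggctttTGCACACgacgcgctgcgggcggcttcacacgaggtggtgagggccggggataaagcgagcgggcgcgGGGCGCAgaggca

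The ER stress element was searched as CCAAT and CCACG with 9 bases between them, on both strands. It is held by 22 of the 33469 promoters (0.0657%) and by 7 of the 17 measured ER chaperone genes with a RefSeq promoter. Of the 5 of these genes whose difference between the drugs was called, 3 hold it and are shown with it in capitals, and of the 11 called for neither drug 3 hold it as well.
Calr, chr19:40213129-40213159, plus strand: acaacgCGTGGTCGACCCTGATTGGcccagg
Hsp90b1, chr7:23012341-23012475, minus strand: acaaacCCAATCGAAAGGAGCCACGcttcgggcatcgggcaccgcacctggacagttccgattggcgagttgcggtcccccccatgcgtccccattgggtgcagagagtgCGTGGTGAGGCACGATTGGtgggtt
Hspa5, chr3:38452967-38452997, plus strand: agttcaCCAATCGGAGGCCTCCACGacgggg

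The antioxidant response element was searched as TGACNNNGC on both strands and was found in 10.1% of all promoters and in 9 of the 31 measured Nrf2 target genes with one, among them 6 of the 19 called for DMF and 2 of the 10 called for neither drug. The sites of 3 genes that rose with DMF follow, with the match in capitals. Mt1 also holds this motif and Hsp90b1 the metal response element in the stretches above, in lower case, and no match there overlaps another motif.
Me1, chr8:96540397-96540417, minus strand: ccgccgTGACTCAGCgcttct
Ephx1, chr13:95263160-95263180, minus strand: agatcaGCTGAGTCAttgggg
Gstp1, chr1:210769752-210769772, minus strand: ctgtgtTGACTCAGCatccgg

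Of the 14313 genes tested, the CBD effect and the DMF effect differed for 369 (2.58%) at an adjusted p under 0.05. The CBD effect was the higher one for 158 genes (1.1%) and the lower one for 211 (1.47%). CBD itself changed 717 genes (5.01%), of which 301 rose (2.1%) and 416 fell (2.91%), and DMF changed 1037 (7.25%), of which 430 rose (3%) and 607 fell (4.24%). The counts of the gene lists below are to be read beside these shares of all genes tested. The same genes were called for both drugs in 139 cases. Of these, 106 moved in the same direction (0.741% of the genes tested), 49 up and 57 down, which is 14.8% of the genes called for CBD and 10.2% of those called for DMF. The other 33 (0.231%) moved in opposite directions, 26 down with CBD and up with DMF and 7 the other way, and the difference was called for all 33. Calls for CBD alone with the difference called as well numbered 108, and for DMF alone 185. For a further 470 genes called with CBD alone and 713 called with DMF alone, the difference was not called, so that these cannot be ascribed to 1 drug. No gene was called between the vehicles EtOH and DMSO by limma or by edgeR (0% of the genes tested), and 18 were by DESeq2, while 1073 had an unadjusted p under 0.05.

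**Figure D1:**
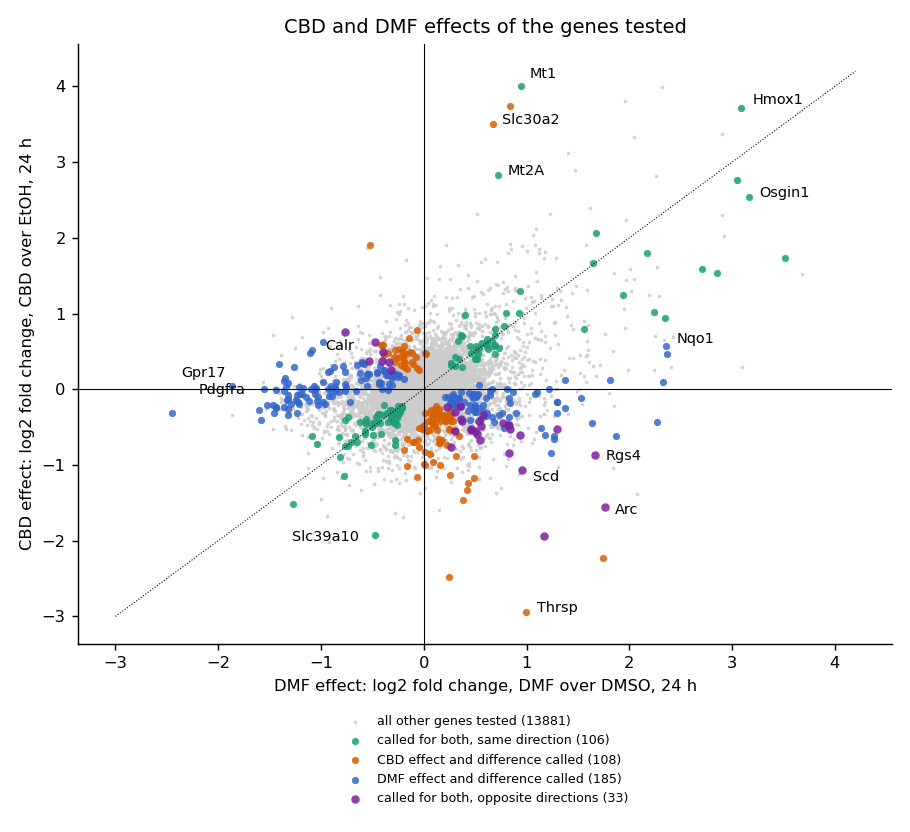
CBD effect (vertical, log2) against DMF effect (horizontal, log2) for the 14313 genes tested at 24 h, with the classes in colour and a dotted line where both effects are equal. Mt1, Mt2A and Slc30a2 lie in the upper part, right of the vertical axis. The genes called in opposite directions lie in the lower right and just left of the axis. The Nrf2 targets Hmox1 and Osgin1 lie near the dotted line.

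Both effects come from separate libraries and share no controls. Same-numbered libraries of different groups deviated together, however (r between 0.182 and 0.484), so that independence of the effects is not shown. Across the 14313 genes, which are not independent replicates, the effects correlated with a Pearson r of 0.339 and a Spearman rho of 0.276, and 59.9% had the same sign. The sign was shared by 70.4% of the genes called for CBD and 68.8% of those called for DMF. Among the 369 genes with the difference called, 296 had effects of opposite sign, and the effect of DMF was the larger in size for 218. The called sign of the difference held in all 3 experiments for all 369, which the call itself favours.

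These counts depended on single libraries. The number of differences called was 604 without CBD library 1, 104 without CBD library 2 and 723 without CBD library 3, and 98 and 94 without DMF libraries 1 and 2. It was 118 and 125 without DMSO libraries 1 and 2, and 168, 192 and 111 without EtOH libraries 1, 2 and 3. The CBD effect gave 1826 calls without CBD library 1, 145 without CBD library 2 and 332 without CBD library 3, 108 and 91 without EtOH libraries 2 and 3, 429 and 434 without DMF libraries 1 and 2, and 375 without DMSO library 2. The DMF effect gave 360 and 262 calls without DMF libraries 1 and 2, 513, 394 and 509 without DMSO libraries 1, 2 and 3, and 1953 without CBD library 3. Genes shared in the same direction numbered 311 without CBD library 1, 27 without CBD library 2, 25 and 18 without DMF libraries 1 and 2, 45, 23 and 34 without the DMSO libraries, and 14 and 16 without EtOH libraries 2 and 3. The genes called in opposite directions numbered 60 without CBD library 1, 9 without CBD library 2, 15 without DMF library 1 or 2, 17 and 16 without DMSO libraries 1 and 2, and 19, 13 and 7 without the EtOH libraries. The balance of directions moved too, with 932 genes up and 894 down for CBD without CBD library 1, 33 and 112 without CBD library 2, and 22 and 69 without EtOH library 3. In every one of these 12 fits, 81 of the 369 differences were called, among them all 20 genes with the smallest p, 10 in each direction. When experiment 2 was left out whole, 11 differences were called, 0 with the CBD effect higher and 11 with it lower. None of the 10 genes with a positive difference was thus called in that fit. Of the 58 differences called for genes chosen by the naming rule given below, 9 were kept there. Without the replicate block, 56 differences, 80 CBD effects, 309 DMF effects and 4 shared genes were called.

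**Figure D2:**
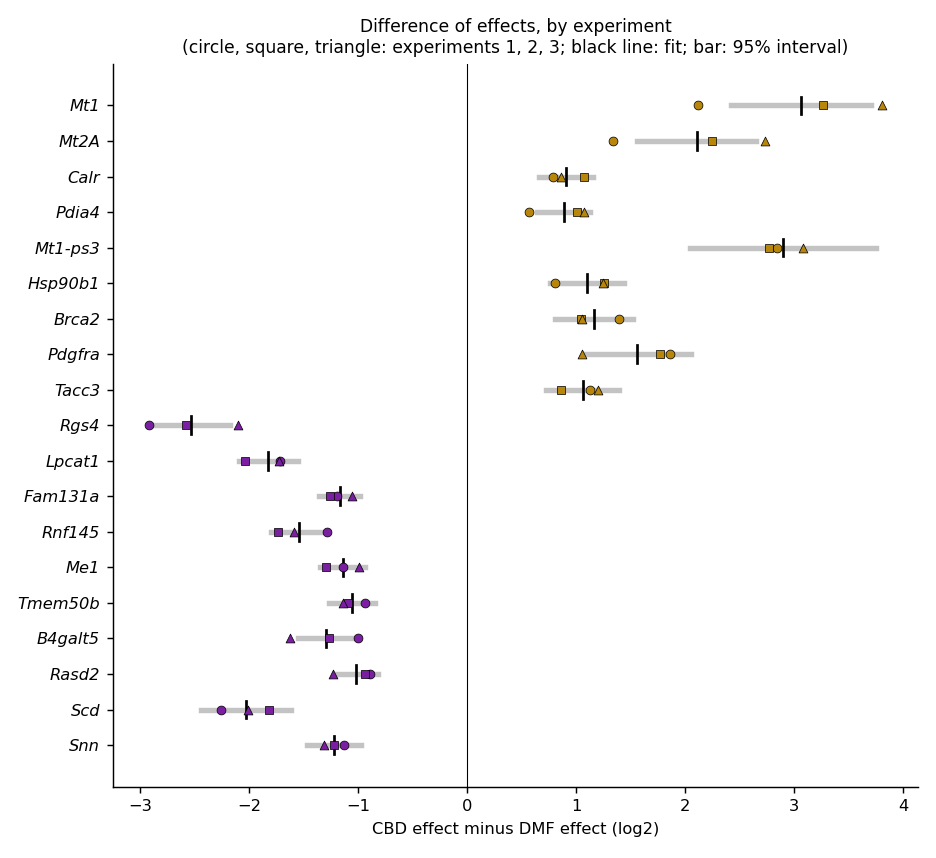
CBD effect minus DMF effect (horizontal axis, log2) for the 9 genes with a positive and the 10 with a negative difference that had the smallest p. Symbols are the experiments, black lines the fitted difference and bars its 95% interval; the 3 symbols of each gene lie on the same side of 0.

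Genes that bind or export zinc were among those that rose more with CBD. Metallothioneins are small cysteine-rich proteins that hold zinc and copper, Slc30a1 exports zinc across the plasma membrane and Slc30a2 moves it into vesicles. Mt1 (chr19:10826032-10827049 in mRatBN7.2, the build of the files) measured 239, 263 and 120 normalized reads with EtOH and 2256, 4041 and 3497 with CBD, against 185, 296 and 147 with DMSO and 402, 471 and 305 with DMF. Each CBD library lay far above every other library, and the DMF libraries also lay above all of the DMSO libraries. Mt1 rose by 4.01 ± 0.21 (log2, SE) with CBD and by 0.94 ± 0.21 with DMF, and the difference was 3.06 (95% interval 2.42 to 3.71, adjusted p = 0.000252, limma). Mt2A rose by 2.83 with CBD and 0.72 with DMF (difference 2.11, adjusted p = 0.00118). The locus Mt1-ps3 on chromosome 17, named as a pseudogene of Mt1, rose by 3.74 with CBD. Its reads may be shared with Mt1, so that its own level is uncertain.

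The exporter Slc30a1 measured 563, 565 and 567 normalized reads with EtOH and 1033, 1021 and 1309 with CBD, against 554, 569 and 580 with DMSO and 754, 751 and 745 with DMF. Both drugs cleared their vehicle in every experiment, with a rise of 0.98 for CBD and 0.40 for DMF and a difference of 0.58 (0.33 to 0.83, adjusted p = 0.023). Slc30a2 measured 7.26, 19.9 and 9.78 with EtOH and 69.0, 132 and 288 with CBD, a rise of 3.50 ± 0.40. With DMF it measured 21.8, 44.1 and 26.2 beside 17.6, 26.0 and 12.6 with DMSO, and this effect of 0.68 was not called (adjusted p = 0.354). The importer Slc39a10 went the other way. It measured 2213, 2075 and 2184 with EtOH, 743, 543 and 449 with CBD, 2168, 2045 and 1971 with DMSO, and 1663, 1326 and 1476 with DMF. It fell by 1.93 ± 0.11 with CBD and by 0.47 ± 0.11 with DMF (difference -1.45, adjusted p = 0.000496). Of 14 measured genes for metallothioneins and zinc exporters, 5 rose with CBD, 3 rose with DMF and 5 had the difference called, all 5 in the same direction. Both counts of 5 include the locus Mt1-ps3, whose reads may be shared with Mt1. The other 9, among them Mt3 (-0.41 with CBD), Slc30a4 (0.03), Slc30a7 (0.24) and the sensor Mtf1 (-0.10 with CBD), did not pass in either effect, and the median of the list was 0.06 for CBD and 0.13 for DMF, beside -0.00 for each over all genes tested. Of 11 zinc importers, 2 fell with CBD (Slc39a10 and Slc39a5) and 1 with DMF. All 5 CBD calls of the exporter list held in every fit without 1 library. Its DMF calls numbered 0 without DMF library 1 or 2 or DMSO library 3, and its differences 3 without DMF library 1 or 2, DMSO library 1 or 2, or EtOH library 1 or 3. The DMF fall of Slc39a10 was lost without DMF library 1 or 2 or DMSO library 2 or 3 (adjusted p up to 0.138), and the CBD fall of Slc39a5 without CBD library 2 or 3 or EtOH library 2 or 3 (0.138). The difference of Slc30a1 was lost without DMF library 1 or 2, DMSO library 1 or 2, or any EtOH library (adjusted p up to 0.0796), and that of Slc30a2 without DMF library 1 or 2, DMSO library 1 or 2, or EtOH library 1 or 3 (up to 0.0772).

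**Figure D3:**
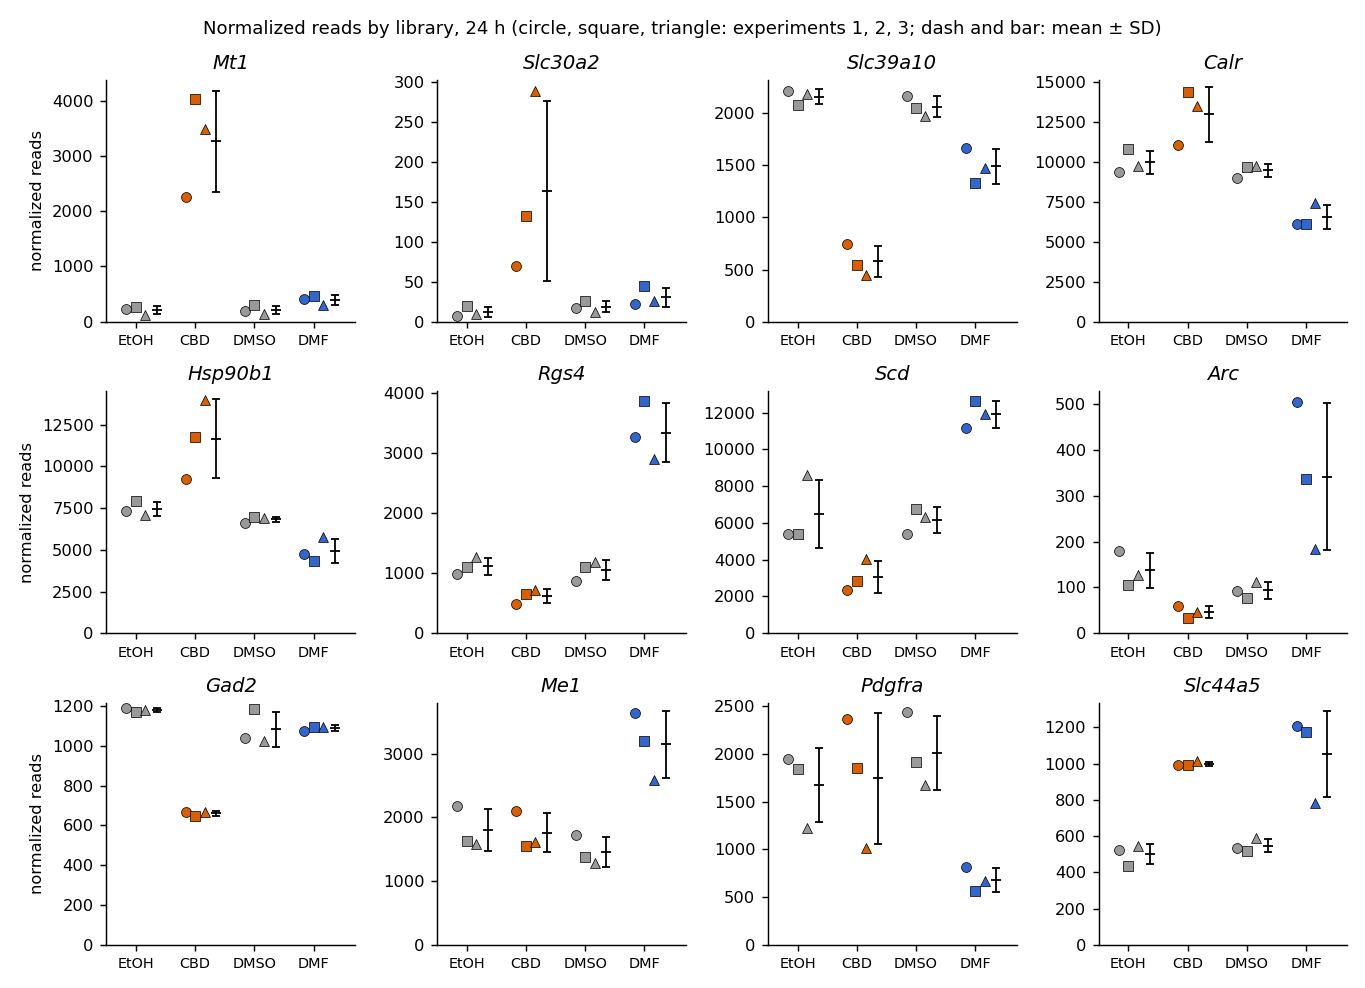
Normalized reads (vertical axis, starting at 0) in the 12 libraries for 12 genes, with 4 groups on the horizontal axis and mean ± SD beside each. Slc30a2 and Gad2 move with CBD, and Me1 and Pdgfra with DMF. Slc44a5, Mt1 and Slc39a10 move with both in the same direction, Mt1 and Slc39a10 further with CBD. Calr, Hsp90b1, Rgs4, Scd and Arc move in opposite directions.

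Several ER chaperones rose with CBD and fell with DMF. These proteins fold and quality-check the products of the secretory pathway: Hspa5 (BiP) and Hsp90b1 (GRP94) bind unfolded chains, Calr binds sugar chains and calcium, and the Pdia proteins form disulfide bonds. Hsp90b1 measured 7332, 7904 and 7091 normalized reads with EtOH and 9255, 11730 and 13960 with CBD, and 6629, 6936 and 6904 with DMSO against 4769, 4312 and 5740 with DMF. The groups overlapped for neither drug. The CBD effect was 0.63 and the DMF effect -0.48, a difference of 1.10 ± 0.16 (SE, adjusted p = 0.0043). Calr measured 9388, 10800 and 9747 with EtOH and 11050, 14360 and 13520 with CBD, and 8982, 9660 and 9757 with DMSO against 6126, 6105 and 7438 with DMF. It rose by 0.37 and fell by 0.54, respectively (difference 0.91, 95% interval 0.66 to 1.16). Pdia4 moved by 0.49 and -0.40, and Sdf2l1, a partner of BiP, by 0.75 and -0.76. Hspa5 rose with CBD (0.58) and had the difference called, without a called fall with DMF (-0.40), while Pdia6 fell with DMF (-0.35) and not with CBD (0.19). Canx and Pdia3 rose with CBD, by 0.41 and 0.24, with DMF effects near 0.

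Of the 19 ER chaperone genes measured, 7 rose with CBD, 5 fell with DMF, 4 did both and 6 had the difference called. The median effect was 0.32 for CBD and -0.11 for DMF, and 15 of the 19 had effects of opposite sign, beside 40.1% of all genes tested. By experiment, the median CBD change was 0.10, 0.30 and 0.63, with 15, 19 and 19 of the 19 genes higher. The median DMF change was -0.22, -0.17 and 0.01, with 3, 2 and 10 genes higher. In experiment 3 the list median with DMF was thus near 0, while Hsp90b1, Calr, Pdia4 and Sdf2l1 measured -0.27, -0.39, -0.42 and -0.24 there. All CBD calls of the list were lost without CBD library 2 or without EtOH library 3, 2 were left without EtOH library 2 and 4 without CBD library 3, and 14 were made without CBD library 1. DMF calls were between 1 and 3 without DMF library 1 or 2 or DMSO library 1 or 2. The difference itself was called for 4 to 10 of the genes in every one of these fits, for Calr, Pdia4, Hsp90b1 and Sdf2l1 in all 12. For Hspa5 it was lost without CBD library 2, DMF library 1 or 2, DMSO library 1 or 2, or any EtOH library, and for Pdia6 without CBD library 2, DMF library 1 or 2, DMSO library 1 or 2, or EtOH library 3 (adjusted p up to 0.116 and 0.0672).

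The gene with the smallest p for a difference was Rgs4, which shortens the signalling of G protein-coupled receptors. It measured 986, 1093 and 1263 normalized reads with EtOH, 488, 644 and 717 with CBD, 873, 1094 and 1186 with DMSO and 3256, 3854 and 2893 with DMF. CBD lay below and DMF above its vehicle in every experiment, by -0.86 ± 0.12 and 1.67 ± 0.12, a difference of -2.53 (-2.89 to -2.17, adjusted p = 2.5e-05). Lpcat1, which remodels phosphatidylcholine, differed in the same way (-0.52 and 1.30), and so did Rnf145, a ubiquitin ligase of the ER membrane (-0.60 and 0.94), and B4galt5, which makes lactosylceramide (-0.48 and 0.82). Tmem50b, Rasd2, a small G protein also called Rhes, and Snn moved by -0.56 and 0.50, by -0.76 and 0.26, and by -0.44 and 0.77. The same pattern held for Rem2, a small G protein that restrains calcium channels (-1.94 and 1.17), Dusp4, a phosphatase of MAP kinases (-0.52 and 0.84), Atp1b1, a subunit of the sodium pump (-0.30 and 0.30), and Gnaq, a G protein subunit (-0.23 and 0.23). Among the 7 genes up with CBD and down with DMF were, besides 4 ER chaperones, Tspan18 (0.26 and -0.32) and Rtbdn (0.38 and -0.40). Both drug groups cleared their vehicles for 26 of the 33 genes (4.56% of all genes tested in either direction), which the choice of genes called on the same libraries favours and which is a description only. Both effects stayed called in all fits without 1 library for 4 of the 33, and without the block for 8. The differences named in this paragraph were called in each of these fits, except those of Gnaq, lost without CBD library 2 or DMF library 1 or 2, and Rtbdn, lost without CBD library 2, DMF library 1 or DMSO library 1 (adjusted p up to 0.056 and 0.0588). The separate effects were less stable. CBD calls were lost without EtOH library 3 for Lpcat1, B4galt5, Snn, Dusp4, Atp1b1, Gnaq, Tspan18 and Rtbdn, and without CBD library 2 for the same genes other than Snn, while that of Dusp4, Tspan18 and Rtbdn was kept in only 2, 2 and 1 of the 12 fits. DMF calls were lost without DMF library 1 or 2 or DMSO library 1 for Rasd2, Rem2, Atp1b1, Gnaq and Rtbdn, that of Rasd2 in 7 of the 12 fits.

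Several genes of fatty acid synthesis parted as well. Scd, the desaturase that makes oleate, measured 5424, 5396 and 8615 normalized reads with EtOH and 2343, 2866 and 4038 with CBD, and 5384, 6749 and 6320 with DMSO against 11150, 12630 and 11930 with DMF. It fell by 1.07 with CBD and rose by 0.96 with DMF (difference -2.03 ± 0.19, adjusted p = 0.000195), and no library of either drug overlapped its vehicle. Fasn, the fatty acid synthase, went the same ways, by -0.47 and 0.83 (difference -1.31, adjusted p = 0.000496). The regulator Srebf1 was called for DMF alone, at 1775, 2705 and 2014 with EtOH, 1508, 3003 and 2159 with CBD, 2307, 2749 and 1971 with DMSO, and 4214, 6112 and 6122 with DMF. Its effects were 0.01 and 1.22 (difference -1.21, adjusted p = 0.00652). Thrsp, an activator of lipogenesis, fell from 200, 127 and 320 to 46.4, 28.6 and 11.98 with CBD, a change of -2.94, while the DMF libraries at 709, 1001 and 222 overlapped those of DMSO at 220, 371 and 240. Of 14 genes of the list, 4 fell with CBD, 6 rose and 1 (Acly) fell with DMF, and 7 had the difference called, all with the CBD effect lower. The medians were -0.23 and 0.24, and 12 of the 14 genes had effects of opposite sign, beside 40.1% of all genes tested. The difference of Thrsp was lost without CBD library 2, DMF library 1 or 2, or DMSO library 1 (adjusted p up to 0.0582), and the number of differences called on the list was between 3 and 9 in these fits. It was 3 without CBD library 2, DMF library 1 or 2, or DMSO library 1, and 4 without EtOH library 3. CBD calls on the list numbered 2 without CBD library 2 or EtOH library 3, and the CBD fall of Fasn was lost without CBD library 2 or EtOH library 2 or 3 (adjusted p up to 0.129). DMF calls numbered 3 without DMF library 1 or 2 or DMSO library 2, and that of Acly was lost without DMF library 1 or 2 or DMSO library 1 or 2 (up to 0.157).

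Of 24 genes of cholesterol synthesis, 5 fell with CBD and 13 with DMF, 2 of them with both, and the medians were -0.24 and -0.39. By experiment, the CBD medians were -0.40, -0.25 and -0.03, with 2, 2 and 9 genes higher, and the DMF medians -0.47, -0.51 and -0.20, with 3, 3 and 5 higher. Hmgcs1, which begins the mevalonate pathway, fell by 0.44 with CBD and by 0.62 with DMF, and Sc5d, a late enzyme of sterol synthesis, by 0.33 and 0.44. The difference of Hmgcs1 was 0.19 with a 95% interval of -0.08 to 0.45. Mvd (-0.33 and -0.76) and Idi1 (-0.24 and -0.70) were called for DMF only, without a called difference. The difference was called for 1 gene of the list. The CBD calls numbered 0 without EtOH library 3, 1 without CBD library 2, 2 without EtOH library 2, 9 without CBD library 3 and 8 without DMSO library 3. The DMF calls numbered 6 without DMF library 1 or 2 or DMSO library 1 or 2, and 20 without CBD library 3. The difference was called for 4 genes of the list without CBD library 1 or 3 and for 5 without DMSO library 3. The DMF call of Mvd was lost without DMF library 1 or 2 or DMSO library 1 or 2 (adjusted p up to 0.113).

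Several immediate early genes, which neurons switch on within minutes of activity, fell with CBD or rose with DMF. Arc, whose protein shapes synaptic receptor traffic, measured 180, 105 and 127 normalized reads with EtOH and 58.8, 32.9 and 47.1 with CBD, against 92.6, 76.2 and 112 with DMSO and 505, 338 and 183 with DMF. CBD and DMF libraries cleared their vehicles on opposite sides. The effects of -1.55 and 1.76 differed by -3.31 ± 0.37 (adjusted p = 0.000774). Egr4 fell by 1.47 with CBD, from 128, 87.2 and 112 to 35.1, 38.1 and 41.9, and measured 0.38 with DMF (adjusted p = 0.246). Nr4a3, an orphan nuclear receptor, fell from 3793, 3430 and 3790 to 2296, 2166 and 2290 with CBD, by 0.70, and its DMF effect was 0.16. Egr3 (-0.88), Npas4 (-2.22) and Btg2 (-0.52) also fell with CBD. With DMF, Egr1 (1.63), Egr2 (1.87), Nptx2 (1.30), Jun (0.95), Homer1 (0.52) and Fosl2 (0.43) rose besides Arc.

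In all, 6 of 20 such genes fell with CBD, 7 rose with DMF, and 11 had the difference called, all with the CBD effect lower. The medians were -0.48 and 0.58, and 18 of the 20 had effects of opposite sign, beside 40.1% of all genes tested. The CBD medians by experiment were -0.79, -0.47 and -0.07, with 2, 3 and 9 genes higher, so that experiment 3, where the changes over the genes called for CBD were largest, had the smallest fall of this group. The DMF medians were 0.90, 0.38 and 0.45. The number of differences called on the list was 4 without CBD library 2, EtOH library 3 or DMSO library 2, 5 without DMF library 1 or 2, DMSO library 1 or EtOH library 1, 7 without EtOH library 2 and 16 without CBD library 3. CBD calls were 3 without CBD library 2 or EtOH library 3 and 4 without EtOH library 2, and DMF calls were 4 without DMF library 1 or DMSO library 1 and 12 without CBD library 1 or 3. The differences of Arc, Egr3, Egr4 and Nr4a3 were called in all 12 fits. Those of Npas4, Btg2, Egr1, Egr2, Nptx2, Homer1 and Fosl2 were lost without CBD library 2 or DMF library 2 and, apart from Npas4, without DMF library 1 (adjusted p up to 0.158), and Egr1 and Fosl2 kept the difference in only 3 fits. The CBD fall of Arc was lost without CBD library 2 or EtOH library 3 (up to 0.0623), and that of Npas4 without CBD library 1 or 2, DMF library 2, DMSO library 2, or any EtOH library.

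The genes called for CBD together with the difference, and not for DMF, numbered 74 falling and 34 rising. Foremost was Fam131a, a gene of unclear role, at 2168, 2044 and 2315 with EtOH, 1059, 1054 and 1139 with CBD, 2134, 1825 and 2293 with DMSO, and 2380, 2248 and 2340 with DMF. It fell by 1.00 ± 0.06 with CBD, while the DMF effect of 0.16 was not called (difference -1.17, adjusted p = 4.56e-05). Gad2, one of 2 enzymes that make the inhibitory transmitter GABA, measured 1189, 1171 and 1179 with EtOH and 666, 647 and 669 with CBD, against 1038, 1186 and 1023 with DMSO and 1073, 1097 and 1097 with DMF. Its CBD effect was -0.83 ± 0.07 and its DMF effect 0.01 (difference -0.85, adjusted p = 0.000687). Gad1, the other enzyme, fell by 0.80 with CBD and measured -0.20 with DMF. The difference of -0.61 (adjusted p = 0.0246) was lost without CBD library 2, DMF library 1, DMSO library 1 or 3, or any EtOH library (up to 0.0836). The vesicular GABA transporter Slc32a1, by contrast, was called for DMF only (-0.33) and measured -0.22 with CBD, and its call was kept only without CBD library 1 or 3 or DMF library 3. In bulk RNA, fewer cells of a type and less RNA per cell cannot be told apart.

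Among the excitability genes of this class were the potassium channels Kcnq3 and Kcnc2. Kcnq3, a subunit of the M current, measured 917, 961 and 1057 with EtOH and 557, 579 and 656 with CBD, and fell by 0.71 while the DMF effect was 0.15 (difference -0.86, adjusted p = 0.00442). Kcnc2, a channel of fast-spiking neurons, fell by 1.01 with CBD (-0.17 with DMF). Kcna1, called for both drugs and so outside this class, fell by 0.60 with CBD and rose by 0.52 with DMF. The sodium channel gene Scn1a rose by 0.43 with CBD and measured -0.23 with DMF. Of 39 channel genes, 10 fell and 2 rose with CBD, 2 fell and 2 rose with DMF, and 6 had the difference called. CBD calls on this list were 3 without EtOH library 2 or 3, 4 without CBD library 2, 7 without DMF library 1 or DMSO library 2, and 8 without CBD library 3, DMF library 2 or EtOH library 1, and the difference gave between 3, without DMF library 1, and 9. The CBD calls of Kcna1 and Scn1a were lost without EtOH library 3, and that of Scn1a also without EtOH library 2 (adjusted p up to 0.104). The difference of Scn1a was lost without DMF library 1 or DMSO library 2, and that of Kcnc2 without CBD library 2, DMF library 1 or 2, DMSO library 1, or EtOH library 1 or 3 (up to 0.0708). Of 25 genes for synaptic vesicles and release, 9 fell with CBD and 2 with DMF. Sv2a, the binding site of levetiracetam, was the first of them, with -0.53 for CBD and 0.06 for DMF (difference -0.59, adjusted p = 0.0149), and Cplx2 measured -0.34 and 0.10. CBD calls on this list were 1 without CBD library 2 or EtOH library 2 or 3, 3 without CBD library 3 or DMSO library 2, 4 without DMF library 2 and 5 without DMSO library 3, and those for DMF were 0 without DMF library 1 or 2 or DMSO library 2 or 3. The difference of Cplx2 was lost without CBD library 2, DMF library 1 or 2, DMSO library 1 or 2, or EtOH library 2 or 3 (up to 0.153). The difference of Sv2a was lost without CBD library 2, DMF library 2, DMSO library 1 or EtOH library 3 (up to 0.0629). Of 35 receptors for glutamate and GABA, 6 fell and 1 rose with CBD and 4 fell with DMF, and Gria3 (-0.36 and -0.73), Grm3 (-0.74 for both) and Gabra5 (-0.22 and -0.21) were shared. CBD calls on this list were 0 without CBD library 2 or EtOH library 2, 1 without EtOH library 3, 3 without CBD library 3 or EtOH library 1 and 4 without DMF library 2 or DMSO library 2, and DMF calls were 1 or 2 without any DMSO library or DMF library 1 or 2.

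**Figure D4:**
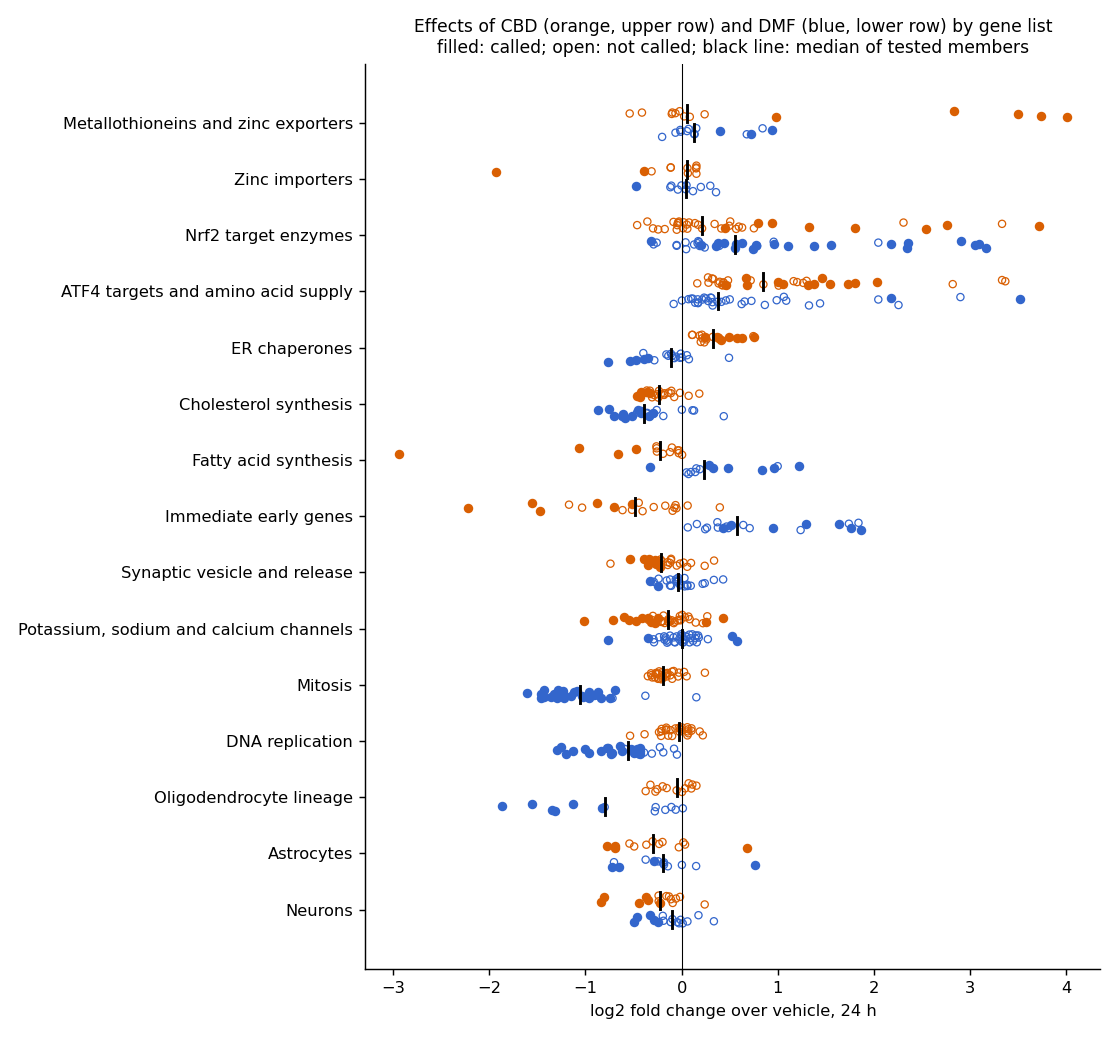
Effects (horizontal axis, log2 over vehicle) of the measured members of 15 gene lists, CBD in orange above DMF in blue, filled where called and with the median as a black line. The lists for ER chaperones, fatty acid synthesis and immediate early genes have medians on opposite sides of 0, and mitosis, DNA replication and the oligodendrocyte lineage move with DMF.

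More Nrf2 target enzymes were called for DMF than for CBD, and most calls came without a called difference between the drugs. Of 37 measured, 8 rose with CBD, 20 rose and 1 (Idh1) fell with DMF, 6 rose with both, and 5 had the difference called, each with the higher effect for DMF. Of the 14 that rose with DMF alone, 4 had the difference called, and Gclm, a subunit of the enzyme that begins glutathione synthesis (0.45 and 0.17), and the exporter Abcc4 (1.32 and 0.79) were called for CBD alone, without a called difference. The medians were 0.21 for CBD and 0.55 for DMF. Me1, the malic enzyme that supplies NADPH, was the clearest case, at 2187, 1637 and 1588 normalized reads with EtOH, 2107, 1547 and 1621 with CBD, 1723, 1378 and 1279 with DMSO, and 3647, 3200 and 2589 with DMF. The CBD effect of -0.04 and the DMF effect of 1.10 differed by -1.14 (-1.35 to -0.93, adjusted p = 9.97e-05). Ephx1, the microsomal epoxide hydrolase, differed likewise (-0.24 and 1.37, adjusted p = 0.000952), and so did Txn1, thioredoxin (-0.05 and 0.44). Nqo1, the quinone reductase, rose with DMF from 312, 288 and 272 to 1477, 1325 and 1692, by 2.36, while with CBD it measured 387, 499 and 1113 beside 491, 393 and 342 with EtOH. CBD library 1 lay below its vehicle and library 3 above it. The difference of -1.79 (adjusted p = 0.0303) was lost without CBD library 2, DMF library 1 or 2, any DMSO library, or EtOH library 1 or 2 (up to 0.107), and that of Txn1 (adjusted p = 0.0292) without CBD library 2, DMF library 1 or 2, DMSO library 1 or 3, or any EtOH library (up to 0.109).

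Hmox1, the heme oxygenase, rose with both drugs and differed widely between the experiments. It measured 324, 270 and 201 with EtOH, 440, 5276 and 17470 with CBD, 223, 265 and 171 with DMSO, and 1028, 1672 and 3668 with DMF. The effects were 3.72 ± 0.80 and 3.09 ± 0.80, and their difference of 0.63 had a 95% interval of -1.84 to 3.10, so that neither likeness nor a large difference is shown. Osgin1 (2.54 and 3.16) and Srxn1, which repairs peroxiredoxins (2.76 and 3.05), were shared as well, with intervals of the difference of -2.31 to 1.06 and -2.29 to 1.70. Osgin1 measured 15.8, 58.3 and 191 with CBD and 9.98, 6.62 and 10.7 with EtOH, and Srxn1 30.6, 166 and 545 beside 27.2, 14.4 and 20.5. The CBD values of experiment 1 were the nearest to the vehicle. Gstp1 (0.79 and 1.56), the glutathione transferase Gsta1 (0.94 and 2.35) and the cystine carrier Slc7a11 (1.80 and 2.18) rose with both. The difference was called only for Gsta1 among the 6 (-1.40, adjusted p = 0.0191), whose reads could be shared with other genes of its family. It was lost without CBD library 2, DMF library 1 or 2, DMSO library 2, or EtOH library 1 or 2 (up to 0.0677). The CBD calls of all 6 genes were lost without CBD library 2 or EtOH library 2 or 3, and those of Osgin1, Srxn1 and Slc7a11 also without CBD library 3 (up to 0.233). The DMF calls of Hmox1, Srxn1 and Slc7a11 were lost without DMF library 1 or DMSO library 2 or 3, among others (up to 0.167).

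By experiment, the median CBD change over the 37 Nrf2 targets was -0.04, 0.17 and 0.46, with 15, 24 and 30 genes higher, and the median DMF change was 0.42, 0.43 and 0.52, with 32, 28 and 32 higher. CBD calls on the list were 0 without CBD library 2 or EtOH library 2 or 3, 4 without CBD library 3, 5 without DMF library 1 or 2 or DMSO library 2, and 18 without CBD library 1. DMF calls were 12 and 10 without DMF libraries 1 and 2 and 11 without DMSO library 2 or 3, and the difference gave 2 without CBD library 2, DMF library 1 or 2, or EtOH library 1 or 2, 3 without any DMSO library, and 10 without CBD library 3. Txnrd1 (0.60 and 0.62) and Gclc (0.34 and 0.74) were called for DMF alone with no called difference. The gene for Nrf2 itself, Nfe2l2, was not called (0.87, adjusted p = 0.0947, and 0.97, adjusted p = 0.0647), nor was any of the other 8 regulators of the pathway measured. Of these 9 genes, 3 had an unadjusted p under 0.05 for CBD and 4 for DMF, and DESeq2 called 1 for CBD and edgeR 0. Without CBD library 1, 5 of the 9 were called for CBD and 3 for DMF, and 3 were called for DMF without CBD library 3.

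Genes of the ATF4 pathway and amino acid supply were called mostly for CBD, without a called difference by limma, DESeq2 or edgeR, and 2 had an unadjusted p under 0.05 for it. Of 35 genes, 12 rose with CBD and 2 with DMF, and the medians were 0.85 and 0.37. Slc3a2, the heavy chain of amino acid carriers, measured 4134, 4717 and 4257 with EtOH and 5384, 12480 and 19000 with CBD, against 3973, 4199 and 4004 with DMSO and 5192, 6310 and 7473 with DMF. Its CBD effect was 1.31 and its DMF effect 0.62 (adjusted p = 0.161), and the difference of 0.69 had an interval of -0.07 to 1.45. Ddit4l, an inhibitor of mTORC1, rose with both (1.73 and 3.52), and Sesn2 (1.54), Pycr1 (1.46) and Slc7a3 (2.03) were called for CBD. The medians by experiment were -0.08, 1.01 and 1.52 for CBD and 0.18, 0.28 and 0.79 for DMF, so that CBD library 1 stood apart from the other two. Without CBD library 1, 33 of the 35 were called for CBD, 13 for DMF and 12 for the difference. CBD calls were 0 without CBD library 2 or EtOH library 2 or 3, 2 without CBD library 3, and 3 without DMF library 1 or 2 or DMSO library 2, and DMF calls were 13 without CBD library 3 and 1 without DMF library 1 or 3 or DMSO library 2 or 3.

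Most genes of the cell cycle fell with DMF. Of 30 mitosis genes, 27 fell with DMF, 0 were called with CBD by limma, DESeq2 or edgeR (1 at an unadjusted p under 0.05), and 17 had the difference called. The median effect was -1.06 for DMF and -0.20 for CBD, and the summed level was 12340, 11410 and 11640 normalized reads with DMSO and 6069, 5364 and 5741 with DMF, against 15180, 16820 and 11550 with EtOH and 15830, 13180 and 9838 with CBD. Tacc3, a protein of the spindle, measured 357, 326 and 333 with DMSO and 154, 148 and 132 with DMF, and 417, 495 and 336 with EtOH against 395, 407 and 307 with CBD. It fell by 1.23 with DMF, the CBD effect was -0.16, and the difference was 1.06 ± 0.15 (adjusted p = 0.00496). Cdc20, the activator of the anaphase complex (-1.15 with DMF, -0.10 with CBD), Ccna2, cyclin A2 (-1.44 and -0.24), and Knl1, a kinetochore protein (-0.92 and 0.24), had differences called in every fit without 1 library. Brca2, which repairs broken DNA, fell with DMF from 212, 184 and 180 to 117, 99.1 and 96.9, by 0.87, and measured 0.29 with CBD (difference 1.16, adjusted p = 0.0043). Of 28 replication genes, 20 fell with DMF and 0 were called with CBD by any of these tools (2 at an unadjusted p under 0.05), with medians of -0.56 and -0.03. Mcm7 alone had the difference called in the full set (0.84, adjusted p = 0.0292), and it was lost without CBD library 2, DMF library 1 or 2, any DMSO library, or EtOH library 1 or 3 (up to 0.109).

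The DMF calls of the mitosis list were between 23 and 29 in the fits without 1 library, while its differences were 6 without DMF library 2 or EtOH library 3, 7 without CBD library 2 or DMSO library 1, 8 without DMF library 1 or EtOH library 1, 10 and 11 without DMSO libraries 2 and 3, and 26 without CBD library 3. For replication, DMF calls were 4 without DMF library 1 or 2 or DMSO library 3, 9 without DMSO library 1 and 8 without DMSO library 2, and the difference gave 16 calls without CBD library 3, 11 without DMF library 3, 2 without CBD library 1 or EtOH library 2, and 0 without the others.

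Several genes of oligodendrocyte precursors, a glial cell type that divides, also fell with DMF. Pdgfra, the growth factor receptor of these cells, measured 2440, 1913 and 1678 with DMSO and 815, 565 and 665 with DMF, and 1947, 1841 and 1228 with EtOH against 2366, 1857 and 1011 with CBD. The groups were apart for DMF and overlapped for CBD. It fell by 1.56 with DMF and measured 0.00 with CBD (difference 1.56, 1.07 to 2.05, adjusted p = 0.00472). Sox10, the factor of the lineage, fell by 1.35 and Gpr17, a receptor of committed precursors, by 1.87, with CBD effects of 0.15 and 0.04. Of 13 genes of the lineage, 6 fell with DMF, 0 were called with CBD by limma, DESeq2 or edgeR (1 at an unadjusted p under 0.05) and 3 had the difference called, while Mbp and Cnp, of myelin-forming cells, measured -0.11 and -0.28 with DMF. The list summed to between 15920 and 19700 with DMSO, 12730 and 15410 with DMF, 15020 and 24160 with EtOH, and 11190 and 21610 with CBD. The part of the number of these cells in the fall of the cell cycle genes was not tested. The difference of Gpr17 was lost without CBD library 2, DMF library 1 or 2, DMSO library 1 or 2, or EtOH library 1 or 3 (up to 0.0692). In each of these fits the difference was called for 2 genes of the list. It was called for 7 genes without CBD library 3 and 5 without DMF library 3. DMF calls of the list were 4 without DMF library 1 or 2 or DMSO library 2 or 3, and 8 without CBD library 3 or DMF library 3.

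Of 22 p53 targets and Bcl2 genes, 7 rose with DMF and 3 with CBD. The DMF calls numbered 11 and 12 without CBD libraries 1 and 3, 6 without DMF library 1 or DMSO library 2, and 5 without DMF library 2. The difference was called for 2 genes of the list, and for 0 without CBD library 2, DMF library 1 or 2, DMSO library 2, or EtOH library 3. The death receptor Fas rose with DMF from 58.4, 32.0 and 35.2 to 158, 173 and 110, by 1.81, and measured 0.12 with CBD (difference -1.69, adjusted p = 0.0212), and Ccng1 rose by 0.47 (difference -0.54, adjusted p = 0.0236). The difference of Fas was lost without CBD library 2, DMF library 1 or 2, DMSO library 2, or EtOH library 2 or 3, and that of Ccng1 without CBD library 2, DMF library 1 or 2, DMSO library 1 or 2, or EtOH library 1 or 3, with adjusted p up to 0.0869 and 0.0933. Gadd45a (1.68), Bbc3 (0.92) and Bid (0.35) rose with CBD, and all 3 calls were lost without CBD library 2 or 3 or EtOH library 2 or 3 (up to 0.224). Of 28 autophagy and lysosome genes, 5 rose with DMF and 3 with CBD, and Gpnmb rose by 1.66 and 1.65. The CBD calls of this list were 0 without CBD library 2 or EtOH library 2 or 3, 1 without CBD library 3, DMF library 1 or 2, or DMSO library 1 or 2, and 9 without CBD library 1, and the DMF calls were 2 without DMF library 2, 3 without DMSO library 3 and 10 without CBD library 3. The lysosomal protease Ctsd rose with DMF only (0.29) and had the difference called (-0.37, adjusted p = 0.0265), lost without CBD library 2, DMF library 1 or 2, any DMSO library, or EtOH library 2 or 3 (up to 0.103). Of 13 astrocyte genes, 1 rose and 3 fell with each drug, with medians of -0.30 for CBD and -0.19 for DMF. Gfap rose with DMF (0.77) and measured 0.04 with CBD (adjusted p of the difference 0.0678), and the receptor Ntsr2 rose with CBD (0.68) and measured -0.14 with DMF, the 1 difference of the list (adjusted p = 0.0453). Aldh1l1 fell with both (-0.69 and -0.65), Aldoc (-0.78) and S100b (-0.69) fell with CBD, and Sox9 (-0.29) and Fabp7 (-0.73) with DMF. The difference of Ntsr2 was lost in 9 of the 12 fits without 1 library (adjusted p up to 0.145), all but those without CBD library 1 or 3 or DMSO library 3. No CBD call of the astrocyte list was left without CBD library 3 or EtOH library 2 or 3, 1 was without CBD library 2 or DMSO library 2, 2 were without DMF library 1 or 2, and 8 were made without CBD library 1. DMF calls were 0 without DMF library 2, where Gfap had an adjusted p of 0.0532, 1 without DMSO library 2 or 3 and 2 without DMF library 1. The astrocyte list summed to 116200, 126400 and 78770 with EtOH and 118800, 107800 and 52930 with CBD, and to 99370, 120800 and 75110 with DMSO and 111400, 123900 and 70820 with DMF.

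The 106 genes shared in the same direction had median effects of 0.67 with CBD and 0.69 with DMF among the 49 that rose, and of -0.43 and -0.44 among the 57 that fell. Their 95% interval of the difference lay within 1 log2 unit of 0 for 88 genes and within 0.5 for 59. The difference was called for 7 of the 106. These were Mt1, Mt2A and Slc30a1, with the larger rise for CBD, Gsta1 and the aldehyde oxidase Aox1, with the larger rise for DMF, and Slc39a10 and Akap5, a scaffold of postsynaptic kinases (-0.73 and -0.28), with the larger fall for CBD. The differences of Aox1 and Akap5 were kept in 3 and 2 of the 12 fits without 1 library. Slc44a5, a choline transporter-like protein, measured 523, 436 and 544 with EtOH and 991, 995 and 1012 with CBD, and 533, 520 and 588 with DMSO against 1208, 1176 and 782 with DMF. It rose by 1.00 and 0.92, and the difference of 0.08 had an interval of -0.35 to 0.51. Bcar3, an adaptor of integrin signalling, rose by 0.59 and 0.61 (difference -0.01, -0.30 to 0.28) and Armcx6 by 0.57 and 0.51 (0.06, -0.19 to 0.31). Uap1l1 rose by 0.59 and 0.69, and Gprc5c, an orphan receptor, by 0.80 and 0.69. Lgals3, galectin-3, rose by 2.07 and 1.68, Bdkrb2, a bradykinin receptor, by 1.58 and 2.71, and Cd63 and Cd151, both tetraspanins, by 0.61 and 0.56 and by 0.51 each.

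Among the shared genes that fell, Tenm1, a teneurin of synaptic wiring, measured 582, 723 and 619 with EtOH and 456, 423 and 360 with CBD, and 671, 727 and 653 with DMSO against 420, 369 and 370 with DMF, a fall of 0.63 and 0.82 (difference 0.19, -0.11 to 0.49). Neto1, a partner of kainate receptors (-0.45 and -0.49), Gucy1b1, a subunit of the nitric oxide receptor (-0.59 and -0.41), Nwd2 (-0.42 and -0.44) and Cpne8 (-0.72 and -1.04) fell with both. Glul, the glutamine synthetase of astrocytes (-0.90 and -0.81), the growth cone protein Gap43 (-0.38 and -0.31), the neurofilaments Nefl and Nefm, and Eomes, a factor of neuronal progenitors (-1.51 and -1.27), also fell with both. Of the 16 neuronal markers, 6 fell with CBD and 5 with DMF, 3 of them the same genes. CBD calls on this list were 2 without EtOH library 2 or 3 and 3 without CBD library 2, and DMF calls were 0 without DMF library 2, 1 without DMF library 1 or DMSO library 2 or 3, 3 without CBD library 2, DMSO library 1 or any EtOH library, and 8 without DMF library 3. Of the 106 shared genes, both drug groups cleared their vehicles for 79, beside 4.56% of all genes tested in either direction. The choice of genes called on the same libraries favours this, so that it is a description only. Both calls were kept in every fit without 1 library for 3 of the 106. For the shared genes named here, the CBD call was most often lost without CBD library 2 or EtOH library 2 or 3, among them Uap1l1, Gprc5c, Neto1, Cpne8, Nwd2, Sc5d and Gstp1 (adjusted p up to 0.148). The CBD calls of Bcar3, Hmgcs1, Glul, Gap43, Nefl, Nefm, Lgals3, Cd63, Cd151, Bdkrb2 and Eomes were lost without EtOH library 3 as well (up to 0.209), and the DMF calls of Lgals3, Cd63, Cd151, Glul, Gap43, Nefl, Nefm and Eomes without DMF library 1 or 2 (up to 0.264). The DMF calls of Mt1 and Mt2A were lost without DMF library 1 or 2 or DMSO library 1 or 3, and that of Mt2A also without DMF library 3 or DMSO library 2 (up to 0.133).

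**Figure D5:**
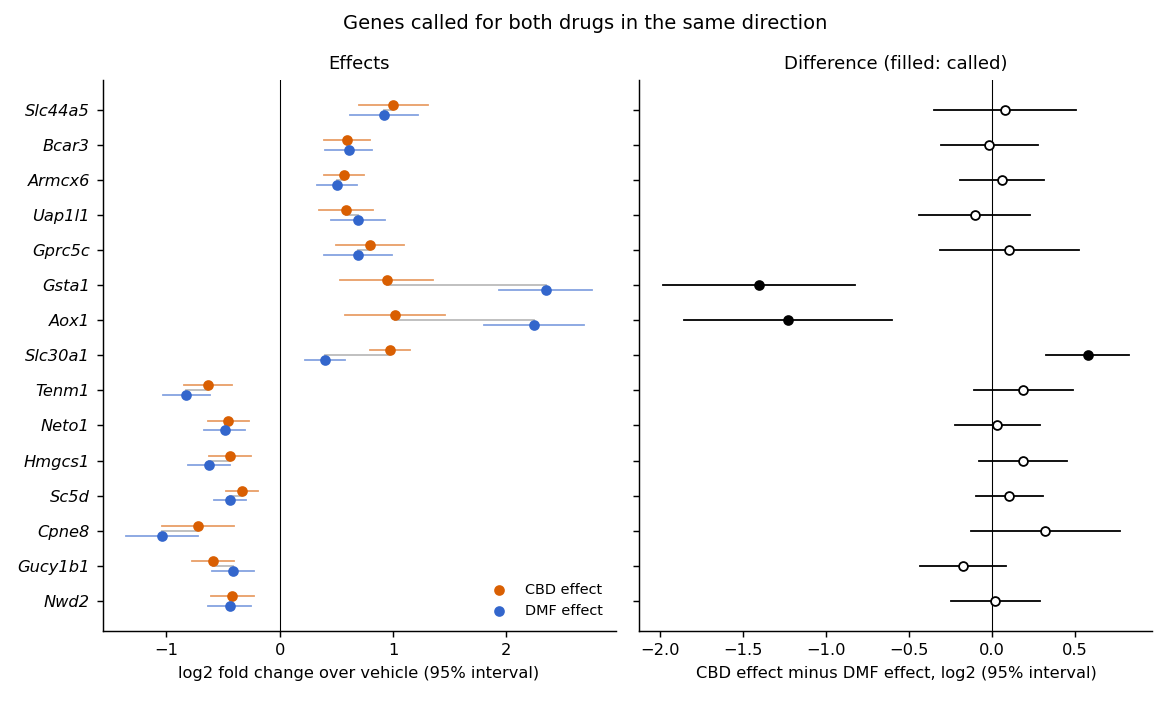
Left, CBD effect (orange) and DMF effect (blue) with 95% intervals for 8 rising and 7 falling shared genes among those with the smallest larger p (horizontal axis, log2). Right, the difference of the effects with its 95% interval; Gsta1, Aox1 and Slc30a1 are filled, since their difference was called, and the other 12 intervals include 0.

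Other lists held few or no differences. Of 32 proteasome subunits, 0 were called for either drug or for the difference by limma, DESeq2 or edgeR, while 4, 4 and 6 had an unadjusted p under 0.05 for CBD, DMF and the difference. Of 23 cytosolic heat shock genes, 2 rose (Hspb8 1.42 and Bag3 0.65) and 2 fell with DMF, and 0 were called with CBD (2 at an unadjusted p under 0.05, 1 by DESeq2, 0 by edgeR). Between 1 and 7 of them were called for DMF in the fits without 1 library. Hspa2, which fell by 0.55 with DMF and measured 0.04 with CBD, had the only difference (adjusted p = 0.0393), lost without 8 of the 12 libraries: CBD library 2, DMF library 1 or 2, DMSO library 1 or 2, or any EtOH library (up to 0.132). Of 24 genes of heme and iron handling, Slc11a2, an iron importer, fell with both (-0.24 and -0.21), Hmox1 rose with both, Blvrb and the ferritin chain Fth1 rose with DMF, and no DMF call of this list was left without DMF library 1 or 2 or any DMSO library. Of 20 genes for receptors, enzymes and lipid carriers of the endocannabinoid system, 1 was called for CBD and 1 for DMF, beside 5.01% and 7.25% of all genes tested. The carrier Fabp5 fell with CBD (-0.30), and the carrier Fabp7, also counted among the astrocyte genes, with DMF (-0.73). The receptor Cnr1 was not called and measured -0.10 and -0.17. The calls of Fabp5 and Fabp7 were lost without DMF library 2 and several others (adjusted p up to 0.167 and 0.128). Of 15 genes of inflammation and NF-kB, Nfkb1, Relb and Nfkbia rose with DMF by 0.43, 0.86 and 0.44, Nfkbie (-0.30) and Ptgs2 (-0.79) fell with CBD, and no difference was called by limma, DESeq2 or edgeR (3 at an unadjusted p under 0.05). The CBD calls were lost without CBD library 2 or 3 or EtOH library 2 or 3, among others, and no DMF call was left without DMSO library 3. Of 13 genes of mitochondrial DNA, 3 fell with CBD, among them Mt-atp6 (-0.53) and Mt-nd2 (-0.51), with medians of -0.14, -0.44 and -0.79 in experiments 1, 2 and 3. No difference was called on this list by the 3 tools (4 at an unadjusted p under 0.05), although 4 were without CBD library 1, and the CBD calls numbered 12 without CBD library 1 and 0 without CBD library 2 or 3, EtOH library 2 or 3, or DMSO library 2. Of the 6 microglial genes tested, 0 were called for either drug by the 3 tools (1 for each at an unadjusted p under 0.05), and of 9 vessel and connective tissue genes Kdr fell with DMF (-0.59), a call lost without DMF library 1 or 2, any DMSO library, or EtOH library 2 (adjusted p up to 0.229).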

How the data were processed

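RNA of 30 rat libraries was sequenced and 12 are compared. Per the submitters' notes, FastQC 0.12.1, cutadapt 4.4, Trimmomatic 0.39, HISAT2 2.2.1 (mRatBN7.2), HTSeq 2.0.3 and DESeq2 1.40.2 were used; the strand setting is not given in the sources used here. The authors deposited a signal per gene, the read count over a size factor, from which whole reads were recovered for 100% of the values. Columns with the authors' own comparisons (fold changes, p-values) were not used.

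Reads were scaled by median-ratio size factors of the 12 libraries, filtered (edgeR 4.0.16, filterByExpr) and fitted as log2(value + 1) by limma 3.58.1 (R 4.3.3) with a mean trend and the replicate number as a block. Benjamini-Hochberg adjusted p-values under 0.05, over every gene tested, are calls. Same-numbered libraries deviated together (r between 0.182 and 0.484 in 18 pairs; other pairs between -0.426 and 0.061). Whether cultures were separate is not given. The p-values measure the spread between these libraries that is left once group and replicate number are fitted.

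The members and the 27 lists were chosen with earlier results of these data known. Named are the 10 genes of smallest difference p in each direction, 8 shared genes each way, up to 8 opposite genes, genes the study names and up to 4 per list; other genes were named after their values were seen. Alternatives were DESeq2 1.42.0, edgeR, TMM, the deposited scale, no filter, a pseudocount of 0.1, the spread of all 30 libraries, a minimum change of 0.5, no block and left-out libraries. The script was tested on simulated data. Results for a few genes are not reported here, nor drawn in the plots by name.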

Additional observations from a re-analysis of the deposited data

Results flagged for a closer look

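The CBD effect and the DMF effect differed by a test of the difference itself for 369 genes. All had the same sign of the difference in the 3 experiments, which the call itself favours. Called for both drugs in opposite directions were 33 genes, led by Rgs4 and Lpcat1, a count that was 7 without EtOH library 3, 9 without CBD library 2, 60 without CBD library 1 and 0 without experiment 2. Dose, vehicle and drug change together in this comparison and cannot be told apart.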

How the results depend on the processing

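No called effect of a gene chosen by the naming rule changed sign under these alternatives, but the balance of higher and lower calls did. CBD calls were 301 up and 416 down over all libraries, 932 and 894 without CBD library 1 and 584 and 555 without experiment 1. Differences were 158 higher and 211 lower, 358 and 324 without experiment 3, and 0 and 11 without experiment 2. Shared genes were 49 up and 57 down, and 166 and 145 without CBD library 1, 10 and 8 without DMF library 2, 16 and 7 without DMSO library 2, 9 and 5 without EtOH library 2, 52 and 33 without experiment 1, 3 and 1 without the block and 33 and 14 with a minimum log2 change of 0.5. The median difference of the ATF4 list went from 0.32 to -0.01 without CBD library 3. Leaving out 1 library or 1 experiment, which also leaves fewer samples, gave between 11 and 723 differences, 16 and 1826 CBD calls, 38 and 1953 DMF calls, 0 and 98 vehicle calls, 0 and 311 shared genes and 0 and 60 genes called in opposite directions. The lowest counts came without experiment 2. Without the replicate block, whose numbers pair the libraries, 56 differences, 80 CBD effects, 309 DMF effects, 4 shared genes and 0 vehicle differences were called. With the spread of all 30 libraries the counts were 862, 1788, 1763, 303 and 2. DESeq2 gave 162 shared genes and 18 vehicle differences, and its 513 differences held 344 of the 369. With no filter on low counts, 462 CBD effects and 61 shared genes were called. A minimum log2 change of 0.5 left 310 CBD effects, 555 DMF effects and 47 shared genes. For the remaining counts of edgeR, TMM, the deposited scale and a pseudocount of 0.1, all lay within 1.5 times the reported ones. The 33 genes called in opposite directions became 8 without the block, 72 with the spread of all 30 libraries and 11 with a minimum change of 0.5. With 3 libraries a group, small differences are not resolved.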
